A study of Mus musculus with 6 samples.

Results

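Genes of endoplasmic reticulum (ER) chaperones and of the unfolded protein response were followed through single-cell RNA sequencing of mouse peritoneal cells. They were *Hspa5*, *Hsp90b1*, *Calr*, *Pdia4*, *Dnajb9*, *Sdf2l1*, *Creld2*, *Herpud1*, *Manf* and *Xbp1*. These are 10 of the 55538 features in the deposited table of unique molecular identifier (UMI) counts. They were chosen by name, and their levels and their co-detection in the same cells were part of the choice, so both are given as description and carry no test. All 10 were detected in every cell class and library, and all 10 passed a minimum mean of 20 CPM (counts scaled to the same UMI total, as UMIs of the gene per 1000000 UMIs of the class) in each comparison of cell classes.

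The series held 6 libraries from C57BL/6 mice, 8 to 12 weeks old, with cells from 3 mice in each. Each library came from 1 of 6 conditions: MerTK +/+ or MerTK -/- cells (the line is also labelled MerKD), each after a medium change as control (timed to the later harvest), or after 2 h or 6 h with apoptotic cells (ACs). Mertk encodes a receptor tyrosine kinase that phagocytes use to engulf dying cells. The ACs were GFP-expressing Jurkat cells, a human T cell line, killed by UV light. Peritoneal lavage cells were left to adhere for 1 h and washed before the treatment, and all 6 conditions shared this step. Cells were made into libraries with the 10x Genomics droplet method, which counts RNA molecules per cell. The table numbers its libraries 1 to 6 and gives no condition for a number. The libraries are therefore described by number, no genotype or time is attached to any of them, and with 1 library per condition none is a replicate of another.

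Of 7760 barcodes, 7665 passed the quality filters. Cells were then gated on UMIs of marker genes: 2773 macrophages (MΦs) on *Csf1r*, *Adgre1* and *Fcer1g*, 3101 B cells on *Cd79a* and *Cd79b*, and 667 T/NK cells on *Cd3d*, *Cd3e* and *Nkg7*. A further 1277 cells met no gate. Every sample was labelled as peritoneal macrophage, yet B cells outnumbered macrophages in the table. Genes outside the gates followed them: *Lyz2* stood at 15081 CPM in macrophages against 235 CPM in B cells, *Ms4a1* at 285 CPM in B cells against 1.23 CPM in macrophages, and *Trbc2* at 328 CPM in T/NK cells against 16 CPM in B cells. The T/NK gate was the least clean, since 153 of its 667 cells (22.9%) also met the B cell gate. A list of 8 further macrophage genes summed to between 477 and 4660 CPM in T/NK cells, depending on the library. Mast cell, mesothelial and dendritic cell lists summed to 14.1 CPM or less in every class, and a neutrophil list to 27.1 CPM in macrophages. Libraries held 4234786 to 10287079 UMIs, 28 barcode sequences occurred in more than 1 library, and 47 cells were called doublets.

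The ER folds and quality-checks proteins bound for the cell surface and for secretion. When unfolded protein builds up there, the sensors IRE1 (gene *Ern1*), PERK (*Eif2ak3*) and ATF6 switch on the unfolded protein response (UPR), which raises chaperones, folding enzymes and degradation factors. Antibody-secreting cells are the textbook example of immune cells that depend on this response, and phagocytes also carry a large load of secreted and lysosomal proteins. *Hspa5* encodes BiP, the main HSP70 chaperone of the ER and a brake on the UPR sensors. *Hsp90b1* encodes GRP94, the ER member of the HSP90 family, and *Calr* encodes calreticulin, a calcium-binding chaperone for glycoproteins. *Dnajb9* (ERdj4) and *Sdf2l1* work with BiP, *Pdia4* is a protein disulfide isomerase, and *Creld2* encodes a small cysteine-rich ER protein. *Herpud1* belongs to the ER-associated degradation machinery, *Manf* encodes an ER protein that can be secreted, and *Xbp1* encodes the transcription factor made active when IRE1 splices its mRNA. Counts per gene do not tell spliced from unspliced *Xbp1*.

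Many genes of this response carry short promoter motifs known from ER stress, and the promoters of the 10 genes that hold a complete ERSE or ERSE-II, defined next, are shown for that reason. RefSeq promoters (GRCm38.p6, from 250 bases before to 50 bases after the transcription start) were held for 9 of the 10 genes. Both strands were searched for the ER stress response element (ERSE, CCAAT followed after 9 free bases by CCACG), ERSE-II (ATTGG and CCACG with 1 free base between them), the UPR element core (TGACGTG), and a C/EBP-ATF response element (CARE, TGATGCAAT). The short core CCACG, which lies inside both ERSE forms, was searched as well. A complete ERSE was in 4 of the 9 promoters, against 39 of all 32851 promoters (0.119%). The 4 were *Hspa5*, *Hsp90b1*, *Creld2* and *Calr*, and *Hsp90b1* held it at 2 places. *Herpud1* held ERSE-II, which occurred in 12 of all promoters (0.0365%). Since these motifs are known from genes of this response, nothing is read from the gap between the counts and the shares. The 250 bases upstream of these 5 starts follow, 5′ to 3′ on the strand of the gene, with the ERSE or ERSE-II match in capitals. They are *Hspa5* (chr2:34771840-34772089, plus strand), *Hsp90b1* (chr10:86705445-86705694, minus strand), *Creld2* (chr15:88819396-88819645, plus strand), *Calr* (chr8:84846932-84847181, minus strand) and *Herpud1* (chr8:94386179-94386428, plus strand).
Hspa5: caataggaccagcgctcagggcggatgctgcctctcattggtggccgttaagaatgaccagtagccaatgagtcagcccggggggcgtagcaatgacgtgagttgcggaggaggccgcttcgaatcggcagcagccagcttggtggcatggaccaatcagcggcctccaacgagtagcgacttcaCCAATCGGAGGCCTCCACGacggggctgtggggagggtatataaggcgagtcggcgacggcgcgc
Hsp90b1: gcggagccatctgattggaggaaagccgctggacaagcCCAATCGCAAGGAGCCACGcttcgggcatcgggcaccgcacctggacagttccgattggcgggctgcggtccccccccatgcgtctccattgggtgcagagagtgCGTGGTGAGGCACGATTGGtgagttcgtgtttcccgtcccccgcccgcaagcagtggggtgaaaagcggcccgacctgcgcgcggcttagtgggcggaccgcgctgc
Creld2: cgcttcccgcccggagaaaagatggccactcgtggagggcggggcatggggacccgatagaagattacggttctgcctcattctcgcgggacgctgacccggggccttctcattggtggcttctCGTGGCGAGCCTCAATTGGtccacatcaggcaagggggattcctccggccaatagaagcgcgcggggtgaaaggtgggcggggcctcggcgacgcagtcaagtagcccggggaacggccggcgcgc
Calr: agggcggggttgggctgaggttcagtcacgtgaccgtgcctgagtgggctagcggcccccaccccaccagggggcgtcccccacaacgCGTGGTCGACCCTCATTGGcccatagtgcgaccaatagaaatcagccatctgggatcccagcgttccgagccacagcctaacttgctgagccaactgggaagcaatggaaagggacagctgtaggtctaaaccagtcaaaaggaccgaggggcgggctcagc
Herpud1: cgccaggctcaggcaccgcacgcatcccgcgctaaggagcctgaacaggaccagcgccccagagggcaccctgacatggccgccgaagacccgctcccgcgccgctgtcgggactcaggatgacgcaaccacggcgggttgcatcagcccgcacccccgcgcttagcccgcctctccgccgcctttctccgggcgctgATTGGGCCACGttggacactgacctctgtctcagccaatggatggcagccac

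The ERSE of *Hspa5* spanned bases -65 to -47 from the RefSeq start, and ERSE-II of *Herpud1* spanned -52 to -42. *Hsp90b1* carried one ERSE on the gene's strand at -212 to -194 and another on the opposite strand at -107 to -89. In *Creld2* (-126 to -108) and *Calr* (-162 to -144) the match read on the opposite strand. The UPR element core was found in *Hspa5* (-157 to -151) and in 2.01% of all promoters. The core CCACG was in 8 of the 9 promoters and in 32.8% of all promoters, and the CARE was in none of the 9 and in 0.192% of all. *Xbp1* held none of the motifs in this window, and *Manf* had no entry. The GENCODE annotation starts *Hspa5*, *Hsp90b1* and *Calr* inside the window shown, so part of each may be transcribed.

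**Figure D1:**
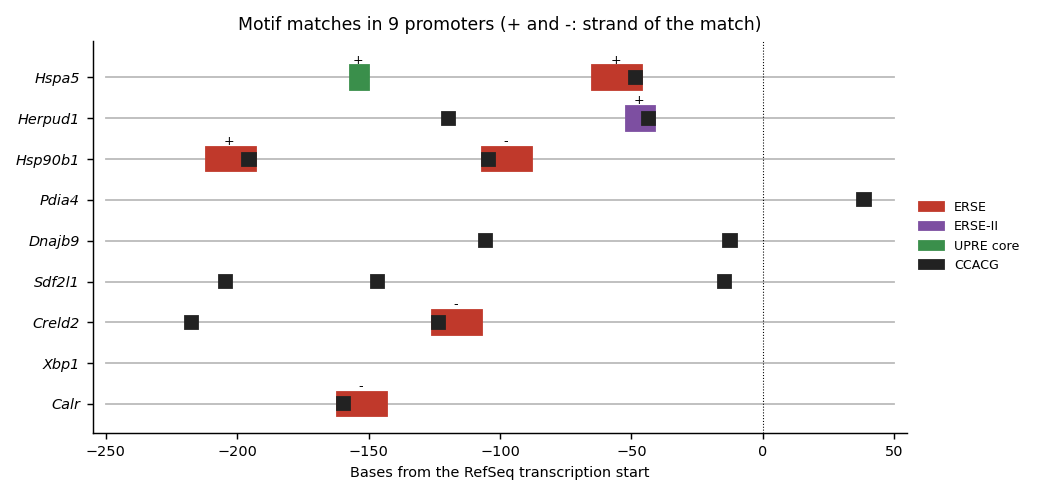
Motif matches in the promoters of 9 genes, by distance in bases from the RefSeq transcription start (x axis); colored boxes are matches and black boxes the core CCACG. ERSE boxes stand in *Hspa5*, *Hsp90b1*, *Creld2* and *Calr*, ERSE-II in *Herpud1*, and no box in *Xbp1*.

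In the GRCm38 annotation, *Hspa5* lies on chromosome 2 at 34771970 to 34777547 (plus strand) and *Hsp90b1* on chromosome 10 at 86690209 to 86705509 (minus strand). *Calr* (84841850 to 84846934, minus strand) and *Herpud1* (94386438 to 94395377, plus strand) both lie on chromosome 8. The annotated span of *Manf* overlaps *Rbm15b* on the same strand and *Dcaf1* on the opposite one. That of *Hsp90b1* overlaps *Gm15344* on the same strand and *1810014B01Rik* on the opposite one. How far these overlaps touch the counts of *Manf* and *Hsp90b1* was not tested. *Rbm15b* held 892 UMIs in the table, *Dcaf1* 663, *1810014B01Rik* 220 and *Gm15344* 21, against 7544 for *Manf* and 17886 for *Hsp90b1* in macrophages alone.

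Across the 3 cell classes, the 10 genes together took 5292 CPM in macrophages, 3112 CPM in B cells and 2410 CPM in T/NK cells. In bulk sums of this kind, fewer cells with high levels and a lower level in every cell cannot be told apart, so shares of cells are given further on. Against B cells, *Hspa5*, *Dnajb9* and *Xbp1* were at least 2-fold higher in macrophages and higher in 6 of 6 libraries. That is 3 of 10, beside 21.1% of the 5367 genes compared, and none of the 10 was lower by the same rule, beside 18.1%. *Herpud1*, *Hsp90b1* and *Creld2* were also higher in 6 of 6 libraries but by less than 2-fold over the 6 libraries summed. The median log2 ratio of the 10 was 0.78, against 0.00 for all genes compared. Since the genes were chosen on these values, nothing is read from that difference. In cells thinned to an equal 1500 UMIs the count was 6, beside 21.9% of genes, and with mitochondrial, ribosomal and immunoglobulin genes taken out of the total it was 1 (*Dnajb9*), beside 12.9%.

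*Hspa5* stood at 1070, 1318, 1822, 1964, 1816 and 2551 CPM in macrophages of libraries 1 to 6, and at 567, 566, 813, 367, 610 and 1001 CPM in B cells. The groups did not overlap, since the lowest macrophage library was above the highest B cell library. No share over all genes stands beside this, here or for the genes below, so nothing is read from it. Over the 6 libraries the level was 1636 CPM (exact Poisson 95% interval 1614–1657, 22539 UMIs) in macrophages and 621 CPM (611–632, 12494 UMIs) in B cells. The log2 ratio was 1.40 (1.36–1.43), and it ran from 0.91 in library 1 to 2.42 in library 4. All such intervals cover counting error only, and the spread over libraries was much wider.

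*Dnajb9* showed the widest gap of the 10 between the classes. Its macrophage levels were 108, 126, 132, 179, 222 and 250 CPM, and its B cell levels 35.2, 26.9, 36.6, 22.3, 29.4 and 68.5 CPM. Every macrophage library was above every B cell library. The log2 ratio was 2.24 (2.11–2.37), with 1.61 in library 1 and 3.0 in library 4 as its ends. *Xbp1*, at 198, 224, 214, 235, 267 and 299 CPM in macrophages and 103, 115, 113, 73.3, 92.2 and 174 CPM in B cells, likewise did not overlap. Its log2 ratio was 1.11 (1.03–1.19), from 0.78 to 1.68 over the libraries.

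*Hsp90b1* was highest in library 6 in both classes. It stood at 758, 864, 1128, 1362, 1688 and 2991 CPM in macrophages and at 530, 551, 1033, 386, 698 and 1791 CPM in B cells. The ranges overlapped although each library had more in its macrophages, with a log2 ratio of 0.85 (0.82–0.88) over all and only 0.13 in library 3. For *Herpud1* the log2 ratio was 0.89 (0.81–0.98), from 0.10 to 1.85, and for *Creld2* 0.71 (0.63–0.80), from 0.24 to 1.84. *Calr* stood at 822 CPM in macrophages and 596 CPM in B cells, a log2 ratio of 0.46 (0.43–0.50) with 5 of 6 libraries higher. Its direction turned, to -0.04, under that reduced total, a scaling that moved the median of all genes to -0.59.

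*Sdf2l1*, *Manf* and *Pdia4* were at like levels in macrophages and B cells. *Sdf2l1* stood at 138 and 137 CPM, with a log2 ratio of 0.01 (-0.07 to 0.09). *Manf* stood at 548 and 574 CPM (log2 ratio -0.07, -0.11 to -0.02) and *Pdia4* at 94.2 and 110 CPM (-0.23, -0.33 to -0.13). Each of them was lower in macrophages in libraries 1 to 3 and higher in libraries 4 to 6, so no direction held over all 6. In library 2 *Sdf2l1* stood at 127 CPM in both classes. In thinned cells the log2 ratios were 0.27 for *Manf* and 0.11 for *Pdia4*.

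**Figure D2:**
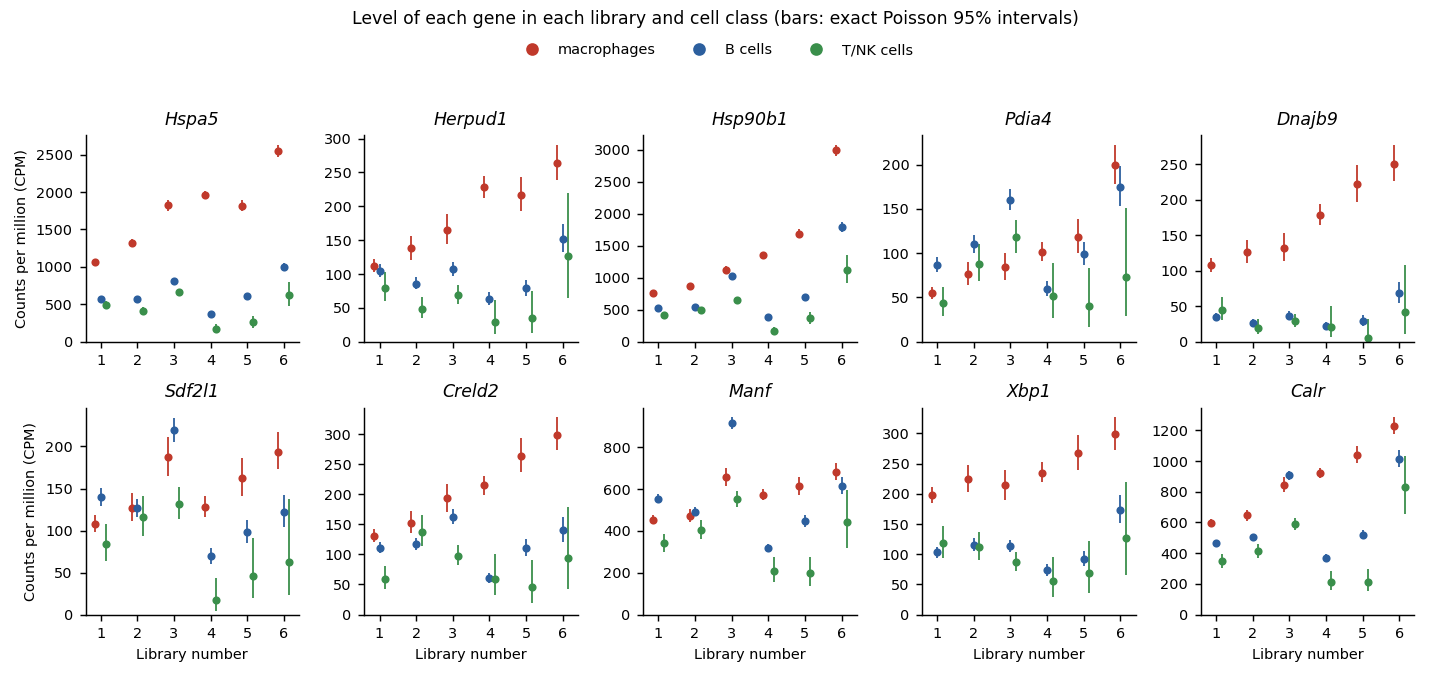
CPM of each gene (y axis, linear, from 0) in libraries 1 to 6 (x axis) in macrophages, B cells and T/NK cells, with exact Poisson 95% intervals as bars. Macrophage *Hspa5* runs from 1070 to 2551 CPM and lies above B cells and T/NK cells in each library, whereas *Manf*, *Sdf2l1* and *Pdia4* in B cells pass the macrophage level in some libraries.

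Library 4 stood at the upper end in this comparison. For all 10 genes the macrophage over B cell ratio was largest there, where 36.1% of all genes had their largest ratio. Library 5 was close to it for some genes, at 2.92 against 3.0 for *Dnajb9* and 1.53 against 1.68 for *Xbp1*. In B cells, all 10 genes were lowest in library 4 (35.2% of genes), whereas in its macrophages none was lowest (9.23%). The 10 genes together took 5906 CPM of library 4 macrophages and 1789 CPM of its B cells. Median depth there was 4595 UMIs per macrophage and 5511.5 per B cell, close to the class medians of 4426 and 5561. Without library 4, the counts of genes at least 2-fold higher in macrophages than in B cells or T/NK cells moved by no more than 1.5 times.

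**Figure D3:**
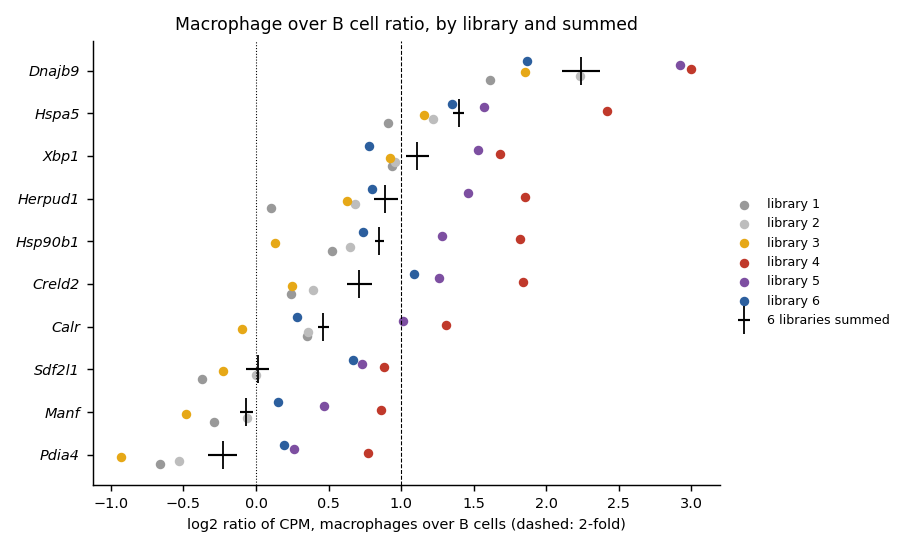
Log2 ratio of CPM in macrophages over B cells (x axis) for each gene in each library (points) and over the 6 libraries summed (black, with exact 95% intervals). Library 4 gave the largest ratio for every gene, up to 3.0 for *Dnajb9*, and the points of *Pdia4*, *Manf* and *Sdf2l1* fall on both sides of 0.

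Against T/NK cells, 6 of the 10 genes were at least 2-fold higher in macrophages and higher in 6 of 6 libraries, beside 20% of 5529 genes compared. They were *Dnajb9* (log2 ratio 2.46, 2.17–2.77), *Hspa5* (1.67, 1.60–1.74), *Herpud1* (1.48, 1.28–1.69), *Hsp90b1* (1.28, 1.21–1.35), *Xbp1* (1.24, 1.08–1.41) and *Creld2* (1.03, 0.86–1.2). *Calr*, *Sdf2l1* and *Manf* were higher in every library but by less than 2-fold over the 6 libraries summed. Their summed log2 ratios were 0.84, 0.41 and 0.35. Single libraries ran from 0.52 to 2.29 for *Calr*, from 0.13 to 2.91 for *Sdf2l1* and from 0.22 to 1.65 for *Manf*. *Pdia4* was higher in 4 of 6. None was lower by the rule (17.8% of genes). *Sdf2l1* and *Manf* turned to -0.07 and -0.13 under the reduced total, which moved the median of all genes to -0.61. When the 153 cells in both lymphocyte gates were left out, all 10 met the 2-fold rule, beside 21.4% of genes. The count was also 10 in thinned cells (20.9%), and 3 under the reduced total (11.8%).

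B cells and T/NK cells differed less. None of the 10 genes was 2-fold apart in either direction, beside 2.3% of 5399 genes higher and 4.2% lower in B cells. The summed log2 ratio of each gene was nevertheless above 0, from 0.13 (-0.04 to 0.3) for *Xbp1* to 0.59 (0.39–0.8) for *Herpud1*. The interval of *Dnajb9* (0.22, -0.09 to 0.54) included 0, as did that of *Xbp1*. In 6 of 6 libraries 7 genes were higher, whereas *Xbp1*, *Dnajb9* and *Creld2* were higher in 5 of 6. No share over all genes stands beside these counts, so nothing is read from them. The count of genes 2-fold apart changed when the cells in both gates were left out. Without them, the T/NK level was 396 CPM for *Hspa5* (with them 513), 323 for *Hsp90b1* (with them 533), 43.4 for *Pdia4* (85.9), 51.7 for *Sdf2l1* (104) and 44.5 for *Creld2* (94.3). *Hsp90b1*, *Pdia4*, *Sdf2l1*, *Creld2*, *Manf* and *Calr* were then at least 2-fold higher in B cells, 6 of 10 beside 7.16% of genes. In thinned cells the count was 4, beside 5.32%. The T/NK libraries were small, with 129, 163, 247, 58, 46 and 24 cells, and their levels carried wide intervals.

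Within macrophages, the 10 genes shared the libraries at both ends of their range. All 10 were highest in library 6, as were 39.3% of the 5116 genes compared, and all 10 were lowest in library 1, as were 22.8%. Between the ends the order varied: *Sdf2l1* stood at 187 CPM in library 3 and 128 CPM in library 4, and *Manf* at 660 and 573 CPM, where *Hspa5* and *Hsp90b1* were higher in library 4. Their sum went from 3593 CPM (3537–3650) in library 1 through 4143, 5432, 5906 and 6415 CPM in libraries 2 to 5 to 8962 CPM (8814–9112) in library 6. The gap between the highest and the lowest library was at least 2-fold for 7 genes, beside 37.4% of genes. *Hsp90b1* differed 3.94-fold between libraries 6 and 1 (3.77–4.13), *Pdia4* 3.65-fold (3.07–4.34) and *Hspa5* 2.39-fold (2.29–2.49). *Xbp1* and *Manf* differed least, at 1.51-fold and 1.5-fold. The median of all genes was itself higher in library 6, by 0.31 on the log2 scale, and relative to that median the 10 genes stood between 0.28 (*Manf*, *Xbp1*) and 1.67 (*Hsp90b1*). After scaling to a median ratio of 1, only *Hsp90b1* and *Pdia4* remained at least 2-fold apart (32.6% of genes), and without library 1 the count was 2 as well (33.7%).

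Depth and macrophage make-up moved with these libraries. Macrophages of library 6 were the shallowest, with a median of 2861 UMIs, and those of library 1 the deepest, with 6246.5. In cells thinned to 1500 UMIs the 10 genes gave a mean of 14.0 UMIs per macrophage in library 6 against 5.28 in library 1. Within libraries, the deepest tercile of macrophages was higher than the shallowest for 4 of the 10 genes, beside 33.1% of all genes, and the log2 ratios ran from -0.27 (*Hsp90b1*) to 0.35 (*Sdf2l1*). Library 6 also held 45 of the 103 small peritoneal macrophages defined further on. The part of depth and make-up in the library differences was not tested.

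Within B cells the order of libraries was another one. All 10 genes differed at least 2-fold between the highest and the lowest library, beside 36.9% of 5185 genes, and the count was 6 without library 4, beside 29.6%. The highest library was 6 for 7 genes (45.4% of genes) and 3 for *Sdf2l1*, *Creld2* and *Manf* (13.5%). *Manf* stood at 553, 492, 918, 317, 446 and 617 CPM in libraries 1 to 6, so library 3 was 2.90-fold above library 4 (2.70–3.11). *Sdf2l1*, at 139, 127, 220, 69.4, 98.0 and 122 CPM, showed a 3.16-fold gap between the same libraries (2.73–3.68). The largest gap was that of *Hsp90b1*, 4.64-fold between libraries 6 and 4 (4.33–4.98). Library 6 was thus high for *Hsp90b1*, *Hspa5* and *Calr* in B cells and macrophages alike, while *Manf* and *Sdf2l1* in its B cells were below those of library 3. In T/NK cells all 10 also passed 2-fold, but so did 69.6% of genes at that depth.

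Libraries 3 and 6 were at the ends of B cell depth, with medians of 7257.5 and 3891.5 UMIs. Inside libraries, depth and the 10 genes moved together in B cells, and the part of depth in the library differences was not tested. The deepest tercile (median 9858 UMIs) was higher than the shallowest (3041 UMIs) for all 10 genes, beside 51.6% of all genes. *Creld2* (log2 ratio 1.68, 1.43–1.93), *Hspa5* (1.67, 1.57–1.78) and *Manf* (1.56, 1.45–1.67) showed the widest differences and *Herpud1* the narrowest (0.38, 0.18–0.59). The median over the 10 was 1.19, against 0.02 for all genes. These are ratios of CPM, so the deeper B cells held a larger share of these UMIs as well as more of them.

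At the level of single cells, the more abundant of the 10 genes were found in most macrophages and in fewer lymphocytes. In cells thinned to 1500 UMIs, at least 1 UMI of *Hsp90b1* was found in 74.9% of 2690 macrophages (Clopper-Pearson 95% interval 73.3–76.6%), 42.6% of 3063 B cells (40.8–44.4%) and 26.9% of 651 T/NK cells (23.5–30.5%). For *Hspa5* the shares were 68.5% (66.7–70.2%), 37.7% (36.0–39.5%) and 23.3% (20.1–26.8%). For *Dnajb9* they were 20.6% (19.1–22.2%), 5.0% (4.25–5.83%) and 5.07% (3.51–7.05%). *Pdia4* was seen as rarely in macrophages (13.5%) as in B cells (13.3%). Unthinned, *Hspa5* was found in 87.1%, 59.2% and 34.3% of all cells of the classes. Every class uses these genes, so none could serve as a background for free RNA in the droplets, and that part of the low shares was not measured. In T/NK cells outside the B cell gate the thinned share was 15.5% for *Hspa5* (12.4–18.9%) and 2.61% for *Creld2* (1.40–4.42%).

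Summed over the 10 genes, a macrophage held a median of 6 UMIs per 1500, a B cell 2 and a T/NK cell 1. The upper tails were long. The 90th percentile of macrophages was 18 UMIs and the highest held 87. In B cells these values were 11 and 45. None of the 10 genes was seen in 2.08% of macrophages, 23.3% of B cells and 42.2% of T/NK cells. By library, the macrophage median went from 4 UMIs in libraries 1 and 2 to 10 in library 6, and the B cell median from 1 in library 4 to 7 in library 6. None of the 10 was seen in 32.8% of B cells in library 4 and in 4.78% in library 6.

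The 10 genes were also found in the same cells more often than their separate shares predict. Expected numbers were formed within each library from the shares of cells with a UMI, at 1500 UMIs per cell. In macrophages all 45 pairs were above expectation, with a median of 1.14 times and a range of 1.02 to 1.55. Pairs of each of the 10 with other genes seen in at least 5% of the cells had a median of 1.00 with the 5th and the 95th percentile at 0.815 and 1.18. In B cells all 45 pairs were above expectation as well, with a median of 1.45 (1.02 to 2.19), where pairs with other genes had a median of 1.02 and the same percentiles at 0.682 and 1.38. In T/NK cells 43 of 45 pairs were above, with a median of 1.88, but the expected numbers were small and these percentiles were 0.368 and 1.91 for pairs with other genes. The 651 T/NK cells also held cells that met the B cell gate, and 498 were outside it. *Hspa5* was found in 23.3% of the 651 and in 15.5% of the 498. The part of this mixture in the ratios was not tested.

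*Sdf2l1* and *Creld2* formed the pair with the highest ratio in macrophages and in B cells. Both were found in 165 macrophages where 106 were expected (1.55 times), and in 103 B cells where 47.1 were expected (2.19 times). *Herpud1*, of the degradation machinery, and *Dnajb9*, the BiP partner, came next in macrophages, with 174 cells against 116 expected (1.5 times). The same pair was near expectation in B cells, with 23 cells against 20.2 (1.14 times). *Hsp90b1* and *Xbp1* were the loosest members in macrophages, each with a median of 1.06 times over its 9 partners, whereas in B cells the median of *Xbp1* was 1.44. In B cells *Herpud1* was loosest, with a median of 1.21 and 1.02 for the pair with *Pdia4*. A UMI of *Hsp90b1* was found in 74.9% of thinned macrophages, of *Hspa5* in 68.5%, of *Calr* in 67.0% and of *Xbp1* in 30.2%. The macrophage medians over 9 partners were 1.13 for *Hspa5* and 1.08 for *Calr*. The part of a gene's share of cells in these ratios was not tested.

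**Figure D4:**
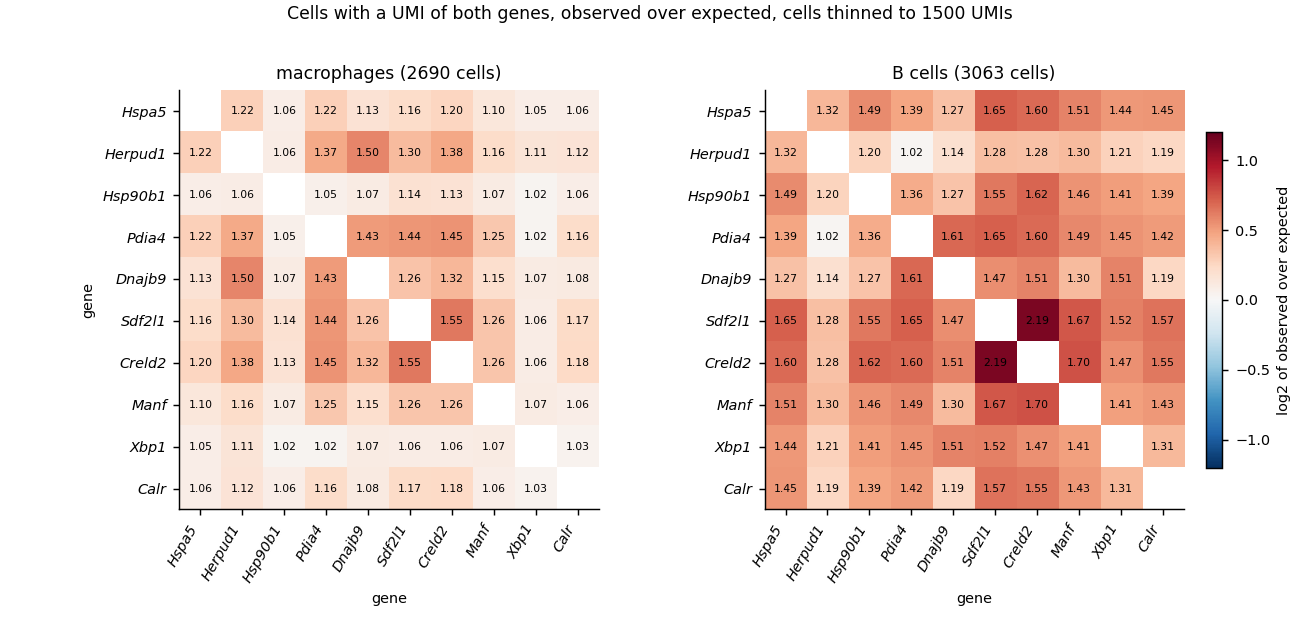
Number of cells with a UMI of both genes over the number expected, for each pair of genes (both axes) in macrophages and in B cells thinned to 1500 UMIs; numbers are the ratio and color its log2. The darkest square in both panels is *Sdf2l1* with *Creld2*, at 1.55 and 2.19 times, and the row of *Xbp1* is pale in macrophages.

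The macrophages of the peritoneum comprise large (LPM) and small (SPM) kinds. Thinned macrophages with at least 2 UMIs of *Gata6*, *Timd4*, *Selp*, *Serpinb2* and *Prg4* and none of the SPM list were called LPM-gated (1797 cells), and those with at least 2 UMIs of *Irf4*, *Fcrls*, *Ccr2*, *Ear2* and *Mgl2* and none of the LPM list SPM-gated (103 cells). Genes outside the lists followed the split: *Icam2* stood at 85.2 CPM in LPM-gated and 0 CPM in SPM-gated cells, and *Cd74*, the MHC class II chaperone, at 1907 and 16774 CPM. *Adgre1* stood at 256 and 33.4 CPM and *Itgax* at 5.78 and 334 CPM. The dendritic cell list was summed over all macrophages only, so whether dendritic cells were among the SPM-gated cells was not tested. All 10 ER genes were higher in LPM-gated cells, beside 44.1% of 5106 genes. *Hspa5* differed most, at 1868 and 686 CPM, with a log2 ratio of 1.44 (1.28–1.61) and 6 of 6 libraries higher. *Calr* (0.61, 0.43–0.80), *Herpud1* (0.67, 0.28–1.08) and *Manf* (0.40, 0.20–0.61) were also higher in every library. *Dnajb9* (0.86, 0.42–1.33) was higher in 5 of 6 and *Creld2* (0.61, 0.24–1.00) in 4 of 6. The intervals of *Pdia4*, *Sdf2l1* and *Xbp1* included 0. SPM-gated cells were shallower (median 3585 against 4937 UMIs), and at 1500 UMIs per cell the log2 ratio of *Hspa5* was 1.67 (1.38–1.97). At that depth *Sdf2l1* was clear of 0 (1.19, 0.30–2.26), whereas the intervals of *Herpud1* (-0.04 to 1.23) and *Dnajb9* (-0.17 to 1.13) included it. *Hsp90b1*, the ER member of the HSP90 family, differed by 0.19 (0.06–0.32), and by 0.22 (0.02–0.43) at equal depth. These ratios pool libraries with unlike shares of the 2 kinds, from 490 LPM-gated and 7 SPM-gated cells in library 1 to 232 and 45 in library 6. Within single libraries the ratio ran from 0.91 to 2.23 for *Hspa5*, from 0.09 to 1.02 for *Hsp90b1* and from 0.80 to 1.12 for *Calr*, whose pooled ratio lay below all of these.

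Macrophages with a UMI of *Trib3*, a pseudokinase gene switched on by ATF4 and CHOP in the integrated stress response, were rare (45 of 2690 thinned cells, none of them in library 3). All 10 ER genes were higher in them than in the 2645 others, beside 54.6% of 5062 genes. *Herpud1* led with 444 against 173 CPM (log2 ratio 1.36, 1.04–1.67), followed by *Hspa5* with 3397 against 1607 CPM (1.08, 0.97–1.19). Both were higher in 5 of 5 libraries, as were *Dnajb9* (0.92, 0.51–1.3) and *Sdf2l1* (0.75, 0.29–1.17). *Creld2* (1.00, 0.64–1.33) was higher in 3 of 5. *Xbp1* (0.06, -0.38 to 0.48) and *Pdia4* (0.50, -0.12 to 1.06) had intervals that included 0. Median depth was 4156 and 4576 UMIs. Library 6 held 12 of the 45 positive cells and library 1 held 7, so the pooled ratios mix libraries in unlike proportions. Within single libraries the ratio ran from 0.08 to 1.3 for *Hspa5*, from 0.36 to 1.44 for *Herpud1*, and from 0.43 to 0.90 for *Dnajb9*, below its pooled value. *Ddit3*, which encodes CHOP, stood at 209 and 67.2 CPM (1.64, 1.15–2.09) and *Asns*, an ATF4 target, at 76.5 and 32.1 CPM (1.26, 0.41–1.99). Each was higher in 4 of 5 libraries, and within single libraries *Ddit3* ran from -1.26 to 2.28. Not every gene of that response followed. The intervals of *Phgdh* (-0.08, -3.14 to 1.8), *Ppp1r15a* (0.38, -0.5 to 1.13), *Wars*, *Atf5* and *Cars* included 0.

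Antibody-secreting cells, in which these genes are known to be high, were looked for by their genes. *Jchain* stood at 3.98 CPM in B cells and *Tnfrsf17* at a single UMI, whereas *Mzb1*, an ER cochaperone gene that other B cells also express, stood at 398 CPM. *Sdc1* stood at 36.1 CPM, *Prdm1* at 22.0 CPM and *Derl3* at 13.7 CPM. B cells with at least 2 UMIs of *Jchain*, *Sdc1*, *Prdm1*, *Tnfrsf17* and *Derl3* (343 of 3101) were higher than the rest for 9 of the 10 genes, beside 59.3% of genes, with log2 ratios up to 0.81 for *Manf* (0.74–0.87) and -0.16 for *Herpud1* (-0.34 to 0.03). They were also deeper, with a median of 8494 against 5276 UMIs, and the gate counted UMIs without thinning. *Derl3* is itself a gene of ER-associated degradation, so these cells were chosen in part on the pathway followed here. The parts of depth and of this choice in the ratios were not tested. *Sdc1* and *Prdm1* were higher in macrophages than in B cells, so these genes did not define plasma cells here.

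B cells with a UMI of the activation genes *Egr3* or *Egr4* (249 of 3063 thinned cells) gave another order. *Herpud1* was 2.32-fold higher in them (log2 ratio 1.21, 1.04–1.38) and higher in 6 of 6 libraries, as was *Hspa5* (0.65, 0.58–0.73). Within single libraries the ratio ran from 0.94 to 1.40 for *Herpud1* and from 0.16 to 1.13 for *Hspa5*. *Dnajb9* was higher in 5 of 6 (0.87, 0.55–1.17). *Hsp90b1* (0.28), *Pdia4* (0.25) and *Xbp1* (0.34) were higher in 4 of 6 libraries, and *Calr* (0.23) in 3 of 6. *Manf* (-0.01), *Sdf2l1* (-0.10) and *Creld2* (-0.19) had intervals that included 0. In all, 7 of 10 were higher, beside 50.2% of genes. The positive cells were deeper, with a median of 6880 against 5531 UMIs, and library 6 held 51 positive and 221 negative cells against 43 and 662 in library 1. The part of depth and library in these ratios was not tested.

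**Figure D5:**
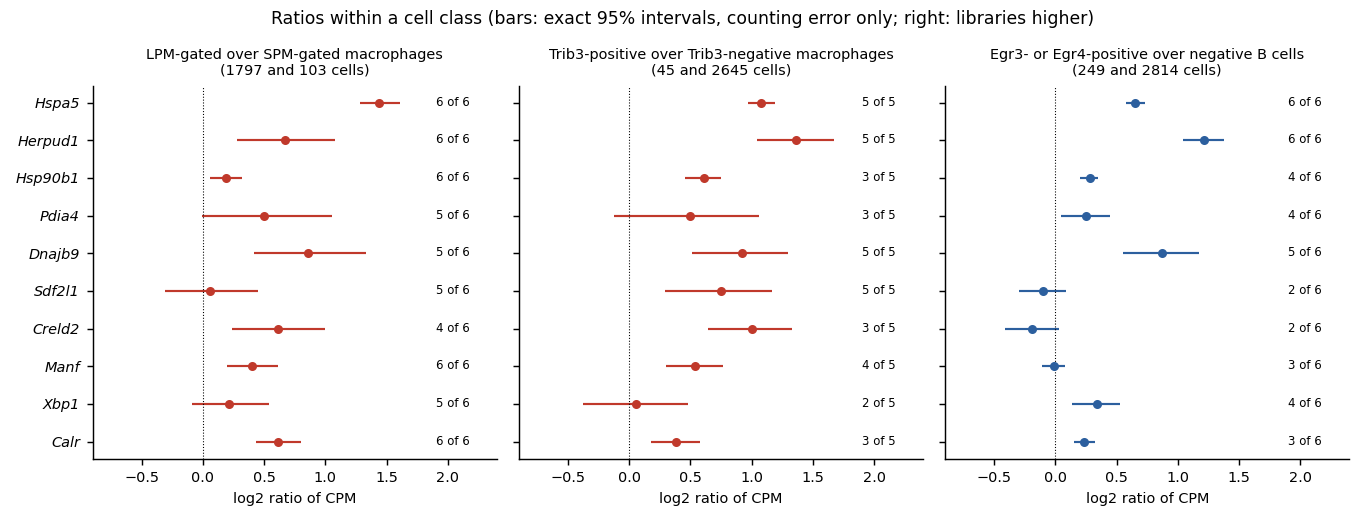
Log2 ratio of CPM (x axis) of each gene for LPM-gated over SPM-gated macrophages, *Trib3*-positive over *Trib3*-negative macrophages, and *Egr3*- or *Egr4*-positive over negative B cells, with exact 95% intervals and, at the right, the number of libraries in which the ratio was above 0 of those with a value. *Hspa5* in the LPM-gated comparison lies farthest right, at 1.44, and *Herpud1* leads the other two, at 1.36 and 1.21.

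The other genes of the pathway were compared in the same way between macrophages and B cells. Beside the counts given here and in the next paragraph, the same rule called 21.1% of all genes compared higher and 18.1% lower in macrophages. Of 20 further ER chaperones and folding enzymes 18 could be compared, and 6 were at least 2-fold higher and 1 lower in macrophages (median log2 ratio 0.42). *Dnajc10*, an ER disulfide reductase, stood at 177 and 31.8 CPM (2.47) and *Ero1l*, an oxidase that feeds disulfides to PDI, at 70.0 and 22.5 CPM (1.64). Its paralog *Ero1lb* went the other way, at 28.5 and 113 CPM (-1.98). Of 15 ER-associated degradation genes 5 were higher and none lower (median 0.93), led by the lectin *Os9* (1.32) and *Herpud2* (1.29). Of 22 genes of the translocon and glycosylation machinery, 4 were higher, such as *Ssr3* (1.94) and *Rpn2* (1.60), and *Stt3b* was lower (-1.07).

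Among the UPR sensors and regulators, 6 could be compared. *Ern1*, the gene of IRE1, stood at 39.2 CPM in macrophages and 5.57 CPM in B cells (log2 ratio 2.81, 2.52–3.12, higher in 6 of 6 libraries). *Eif2ak3*, the gene of PERK, stood at 16.8 and 34.6 CPM (-1.04, -1.27 to -0.83, lower in 6 of 6). *Atf6* was at 60.3 and 57.8 CPM (0.06, -0.07 to 0.19). The sensor genes thus differed in opposite directions between the classes. Of 18 genes of the integrated stress response, 7 were higher and 2 lower (median 0.65), among them *Cebpb* (5.88) and *Slc7a11* (5.85) on one side and *Phgdh* (-3.32) and *Ddit4* (-1.33) on the other. Cytosolic heat shock genes served as chaperones of another compartment. Of 9 compared, *Bag3* was higher (2.61), and *Hspe1* (-1.62) and *Hspa8* (-1.03) lower in macrophages, with a median of 0.04.

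Genes whose levels ran most like the 10 over the 18 combinations of class and library were ranked among 5601 genes by Pearson correlation with the mean of the standardized log2(CPM + 1) values. The points share libraries and depth, so the values are a description. *Pdia6*, a disulfide isomerase, came first with 0.98, then *Tmem41b*, a scramblase of the ER membrane, with 0.97. *Etf1*, *Canx*, *Arpc5*, *Pdia3*, *Gmppb* and *Rpn1* followed with 0.95 each. *Canx* (calnexin), *Pdia3*, *Gmppb* (GDP-mannose synthesis) and *Rpn1* (oligosaccharyltransferase) belong to glycoprotein folding and assembly, whereas *Etf1* is a translation release factor and *Arpc5* an actin regulator. Of the 10 genes, *Calr* (0.97) and *Hspa5* (0.96) were closest to their own mean, which holds them, and *Pdia4* (0.77) was farthest. With the mean of each class removed, *Pdia6* (0.97) was again first, and *Tmem41b*, *Lman1*, *Ftsj3*, *Hsp90aa1* and *Morf4l2* (0.95 each) and *Hspd1* and *Ran* (0.94 each) took the next places outside the 10. *Etf1* then ranked 27, *Arpc5* 22 and *Gmppb* 59. *Calr* and *Hspa5* (0.96 each) stayed closest, *Pdia4* was at 0.86, and *Dnajb9* and *Sdf2l1* (0.77 each) were farthest.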

How the data were processed

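Barcoded 10x Genomics 5′ libraries were aligned by the authors with Cell Ranger to human and mouse genomes, and mouse reads (mm10, GRCm38) were used. The submitters' processing notes name Cell Ranger 2.2 and Seurat 3.0. The deposited file holds raw UMI counts of 55538 features in 7760 barcodes, aggregated over 6 libraries, with no normalization. Cells with fewer than 500 genes, a log gene to log UMI ratio under 0.8 or over 10% mitochondrial UMIs were left out. The study words the second limit as a ratio of UMIs per gene, which was read here as this log ratio. The gates took at least 2 UMIs of the macrophage genes (with at most 2 of the B cell and 1 of the T/NK genes), 4 of the B cell genes, or 2 of the T/NK genes. UMIs were summed per class and library and divided by the class total (CPM). Genes were compared where the mean of both classes was at least 20 CPM. They were called at 2-fold over the 6 libraries summed, with the same direction in every library. Levels carry exact Poisson, shares Clopper-Pearson and ratios exact conditional 95% intervals, which cover counting error only. No test was run, because each condition has 1 library and library numbers are not tied to conditions. The named genes were the 10, up to 4 genes a list by largest and smallest ratio, the 8 most alike in pattern, and markers. The members, the lists, the gates and the splits were chosen with earlier results of these data known. The *Egr3* or *Egr4*, depth and plasma cell gene splits were chosen after seeing the counts. Scrublet (scanpy 1.11.5, expected rate 0.01) was run on each library by itself, and the doublets it marked were kept, with an alternative setting that leaves them out. Thinning used a fixed seed. The ratio and interval code was tested on simulated data. Python 3.11.15, numpy 2.4.6, scipy 1.17.1, pandas 2.3.3 and matplotlib 3.10.9 were used. Promoters and gene spans came from RefSeq (GRCm38.p6) and GENCODE, matched by symbol. Protein sequences were not used, and a further split of the B cells is not reported here.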

Additional observations from a re-analysis of the deposited data

How the results depend on the processing

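No paired analysis of conditions was possible because each condition has 1 library and the library numbers are not tied to conditions, so conditions could not be compared at all. Cell classes were compared on UMIs summed over the 6 libraries, and only the direction was checked within each library. Library 3 held 247 of the 667 T/NK cells and 225 of the 2773 macrophages. The summed ratios between classes thus mix libraries in unlike proportions. The counts of genes at least 2-fold higher moved by over 1.5 times under 3 settings. For macrophages over B cells (3 genes, beside 21.1% of all genes), the count was 6 in cells thinned to 1500 UMIs (21.9%). It was 1 with mitochondrial, ribosomal and immunoglobulin genes out of the total (12.9%). For macrophages over T/NK cells (6 genes), it was 10 thinned, 10 with cells in more than 1 gate left out and 3 under the reduced total. Stricter gates gave 4 (21.8% of genes) and 5 (18.2%) for these comparisons. Leaving out 1 library gave 3 to 4 (19.7% to 22.1%) and 5 to 7 (18.7% to 21.9%). For B cells over T/NK cells (0 genes, beside 2.3%), it was 4 thinned (5.32%) and 6 without cells in more than 1 gate (7.16%). The number of genes 2-fold apart between libraries was 7 in macrophages (37.4% of all genes) and 2 after scaling to a median ratio of 1 (32.6%). Leaving out 1 library at a time gave 2 (without library 1, beside 33.7%) to 7 in macrophages and 6 (without library 4, beside 29.6%) to 10 in B cells. The share of all genes in these settings ran from 26.7% to 35.1% in macrophages and from 14.9% to 36.0% in B cells. *Manf* changed sides between macrophages and B cells (log2 ratio -0.07): it was 0.12 with stricter gates, 0.27 thinned, 0.10 without B cells carrying plasma cell genes, 0.04 as the median of the libraries, and -0.20 to 0.16 with 1 library left out. *Pdia4* was 0.11 thinned. Under the reduced total, *Calr* was -0.04 against B cells, and *Sdf2l1* (-0.07) and *Manf* (-0.13) turned against T/NK cells. The cause was not tested. Leaving out called doublets, keeping every barcode and a minimum of 50 CPM or none changed no ratio of the 10 genes by more than its spread. Other settings moved many of the 30 ratios between classes. The median of the libraries' own ratios moved 22 and reversed 1, and thinning moved 25 and reversed 2. Leaving out cells in more than 1 gate moved 18, stricter gates moved 14 and reversed 1, and the reduced total moved 17 and reversed 3. With 24 T/NK cells in library 6, levels there rest on few UMIs.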
